A study of Mus musculus with 6 samples.

Results

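Vascular endothelial cells line the blood vessels of the spinal cord. They were selected here, on the values of the genes that mark them, from 1 deposited table of 13614 cells, and 277 cells were found (2.03%, exact binomial 95% interval 1.80 to 2.29%, counting error only). A cell was taken when it had a value above 0 for at least 2 of the 6 genes Cldn5, Flt1, Pecam1, Ly6c1, Cdh5 and Itm2a, with Cldn5 or Flt1 among them, and when its values for the myeloid genes C1qa, Ctss and Tyrobp added up to less than 8. The cells were thus chosen by the values of these 9 genes, whose levels describe the choice and are no finding.

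The study profiled dissociated spinal cord by droplet-based scRNA-seq to ask how complex I of the respiratory chain acts in EAE, an autoimmune disease of the CNS raised in mice by immunization with a myelin peptide (MOG). The labels list 6 libraries: 1 of non-immunized WT controls (HC, WT), 1 of non-immunized Nd6 controls (HC, ND6), 2 of WT mice with EAE and 2 of Nd6 mice with EAE. In Nd6 mice mt-Nd6, which the mitochondrial genome encodes and whose product belongs to complex I, has a point mutation, and this is not limited to 1 cell type. Actinomycin D and triptolide, both inhibitors of transcription, were perfused in all mice before the cord was digested and freed of myelin. The digestion buffer held both as well, together with anisomycin. The labels give neither the age of the mice nor how many mice a library holds. Cell names carry 1 of 6 numbers that neither the table nor the labels tie to a library. The cells that share a number are called a set here, and sets are lettered A to F from the largest to the smallest. Genotypes and disease states therefore could not be compared, the table was treated as 1 pooled sample, and no p-value was computed.

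Endothelial cells of the CNS form the blood-brain and blood-spinal cord barrier. They are sealed by tight junctions, carry out little transcytosis, and move glucose, amino acids, hormones and lipids through dedicated transporters while efflux pumps return drugs to the blood. Wnt signalling from neighbouring glia keeps them in this state. From arteriole to capillary to venule they change gradually, and in inflammation venules are the main site at which leukocytes leave the blood.

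All 6 sets held endothelial cells, 52 in set A, 49 in B, 41 in C, 37 in D, 69 in E and 29 in F. Their share was 1.12% of set A and 5.73% of set E, with 1.23, 2.46, 2.83 and 3.58% in sets B, C, D and F. The deposited values are whole numbers that add up to 687 to 1578 per cell whatever the number of genes, so they were read as scores rather than molecule counts, and the sequencing depth is unknown. Endothelial cells had a median total of 1047 and 658 genes with a value, against 959 and 544 in all other cells. Among the barcodes, 18 occurred in more than 1 set, none of them in an endothelial cell.

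Of the 6 marker genes the rule required 2, and the number held describes the choice of cells. All 6 were present in 36 cells, 5 in 53, 4 in 72, 3 in 49 and 2 in 67. Flt1, which encodes a VEGF receptor, had a value in 91.3% of the cells, the tight junction gene Cldn5 in 77.3%, Ly6c1 in 75.8%, Itm2a in 60.3%, Pecam1 in 42.2% and the adherens junction gene Cdh5 in 32.1%. In myeloid-marked cells, which should lack them, Flt1 had a value in 12.7% and Cldn5 in 9.57%, so a value for a single endothelial gene does not set a cell apart.

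The limit on the myeloid genes decided how many cells were taken. The marker part of the rule alone was met by 1257 cells, of which 980 were past the limit. Mean Slco1a4, a gene the rule did not use, was 3.20 per cell where the myeloid sum was 0 (101 cells), 2.41 at a sum of 1 to 3, 1.88 at 4 to 5, 0.976 at 6 to 7 just inside the limit, and 0.32 at 8 to 9 just outside it. Abcb1a went from 1.82 at a sum of 0 to 0.512 just inside and 0.427 just outside. Past the limit both stayed low, at 0.252 and 0.126 on average. The cells at sums of 6 to 7 thus carried less of the endothelial programme than the others, and they were kept as the rule states.

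**Figure D1:**
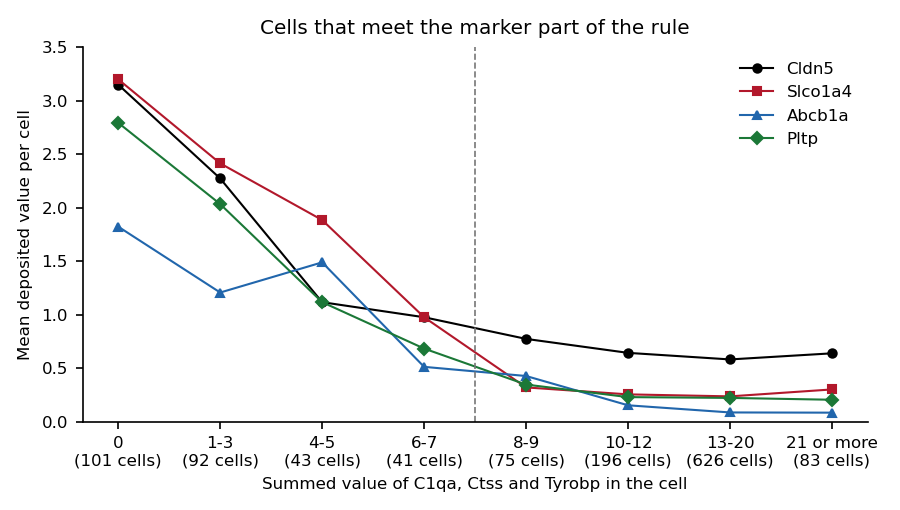
Mean deposited value per cell of Cldn5, Slco1a4, Abcb1a and Pltp (y axis) in cells that meet the marker part of the rule, by the summed value of C1qa, Ctss and Tyrobp (x axis, with the number of cells); the dashed line is the limit of 8. Slco1a4 is at 3.20 at a sum of 0, at 0.976 just inside the limit and at 0.32 just outside.

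Genes were then compared between the 277 endothelial cells and the 13337 other cells, of which 11481 were myeloid-marked. Each gene's mean was taken in every set and the 6 means were averaged with equal weight. A gene was counted as higher when the ratio of these averages was at least 2 and its mean was higher in each set, and as lower when the ratio was at most 0.5 and its mean was lower in each set. Among 4213 genes with a value in at least 5% of either group, leaving out the 9 genes of the rule, 991 were higher (23.5%) and 356 were lower (8.45%). A gene rare in other cells passed this minimum only through the endothelial cells, as Foxf2 did (12.3 against 0.367% of cells). The counts of list members compared and the highest ratios below therefore lean towards genes that are higher. The median ratio over all 4213 was 1.43. A ratio of at least 10 was reached by 298 genes and one of at least 20 by 78.

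The 25 highest ratios, from 28.0 to 56.2, belonged to genes of several roles. Junctional genes among them were Cgnl1, which encodes paracingulin (ratio 35.0), Ocln, which encodes occludin (30.5), and Jcad, a cadherin 5-associated protein (38.2). Jcad was present in 50.5% of endothelial cells and 2.62% of other cells, and its set means were 1.12, 0.714, 0.902, 1.22, 1.19 and 1.03 in endothelial cells of sets A to F against 0.0134 to 0.0445 in other cells. The set means of the 2 groups did not overlap, though single cells did. A gene had to be higher in each set to be counted, and the share of all genes with such a gap was not computed. Others were the transcription factor Foxf2 (34.4), the VEGF receptor Flt4 (35.4), the chemokine Cxcl12 (29.0), the receptor tyrosine phosphatase Ptprg (28.1), Nostrin, which regulates the trafficking of endothelial nitric oxide synthase (28.0), the matrix genes Mmrn2 (28.3) and Hmcn1 (29.1), Apold1 (29.8), Palmd (28.6), Clic5 (34.1), Plxna2 (28.5) and Flvcr2 (31.4), whose product carries choline across the barrier. The remaining ones were Pakap.2 (56.2, 21 endothelial cells with a value), C130074G19Rik (41.8), Fmo2 (39.8), Unc45b (38.9), Rflnb (37.7), Kif26a (35.1), Lmo7 (31.6), Rbm20 (31.0), Ccdc85a (29.6) and She (28.5).

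The genes counted as lower were led by genes of innate immune cells. Arl11, H2-Oa and Phf11b had no value in any of the 277 cells against 5.65, 5.14 and 5.85% of other cells, so they are listed at 0 and have no ratio. Tmem173 (ratio 0.032), Hpgd (0.0503), Capn3 (0.0504), the chemokine Ccl9 (0.052), the RNA sensor Tlr7 (0.0589), the platelet-activating factor receptor Ptafr (0.0613) and the ATP receptor P2rx7 (0.0705) each had a value in at most 4 endothelial cells. As most other cells were myeloid and the rule caps 3 myeloid genes, such genes are low in part by the choice of cells. Against only the 1856 other cells under the myeloid limit, 230 of 4077 genes were lower (5.64%), and 111 of these were among the 356.

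Of 27 transcription factors of endothelial identity, 20 passed the minimum of 5% of cells. Of these 20, 17 were higher (median ratio 14), beside 23.5% of all genes. Epas1, which encodes HIF-2α, had set means of 1.17, 0.939, 1.20, 0.784, 1.46 and 1.31 in endothelial cells of sets A to F and of 0.0335 to 0.0821 in other cells (ratio 21.5). The ETS factor Erg (22.6), the SOX factors Sox17 (11.7) and Sox18 (26.7), the flow-responsive Klf2 (11.1) and Klf4 (21.3), Mecom (23.2), Tcf4 (5.66) and the barrier-associated Foxq1 (24.6) were higher in each set. Fli1, an ETS factor that myeloid cells also express, had the smaller ratio of 3.33. Ets2 and Elk3 had ratios of 5.14 and 2.94 but were not higher in each set. Heyl was listed at 0.

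Of 27 receptors for growth and guidance factors compared, 22 were higher and 1 was lower (median ratio 10.6), beside 23.5 and 8.45% of all genes. The VEGF receptor Kdr (23.6), the angiopoietin receptor Tek (23.5) and its partner Tie1 (19.5), the phosphatase Ptprb that restrains Tek (24.6), and the adhesion GPCRs Adgrl4 (22.1) and Adgrf5 (24.7) were present in 18.8 to 57.8% of endothelial cells. Igf1r, the receptor for insulin-like growth factor 1, had set means of 1.92, 1.16, 1.61, 0.919, 1.64 and 1.97 against 0.0537 to 0.114 in other cells (ratio 20.1), and the insulin receptor Insr had a ratio of 10.7. Both parts of the adrenomedullin receptor were higher, Ramp2 at 14 and Calcrl at 8.61. Within the TGFβ and BMP family the receptors differed in direction. Acvrl1 (10.3), Eng (9.40) and Bmpr2 (6.01) were higher, Tgfbr2 had a ratio of 1.42, and Tgfbr1 was lower (0.236), with set means of 0.0577 to 0.146 against 0.234 to 0.594. Against only the other cells under the myeloid limit, the ratio of Tgfbr1 was 0.472.

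Ligands and secreted factors were higher in 12 of 14 genes compared (median ratio 15.4), beside 23.5% of all genes. They included the phospholipid transfer protein Pltp (16.7, set means 1.22 to 2.83), Egfl7 (10.8), which is secreted by endothelium and hosts a vascular miRNA, Igfbp7 (11.4), Sema3c (15.5), the Notch ligands Dll4 (22.1), Jag1 (12.5) and Jag2 (15.3), Tgfb2 (23.7), and Pdgfb (3.79), which recruits pericytes. Tgfb1 was counted in neither direction (0.72), and the vasoconstrictor Edn1 had a ratio of 16 but no value in set C. Nos3, which makes nitric oxide, was present in 18.4% of endothelial cells at set means of 0.188 to 0.297 (ratio 17.8).

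**Figure D2:**
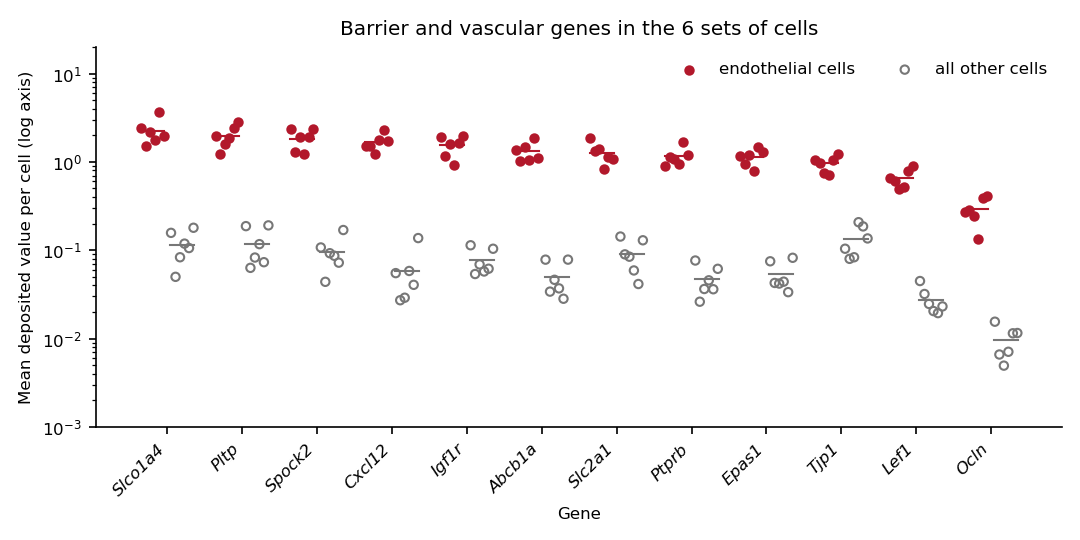
Mean deposited value per cell (log axis) of 12 genes the rule did not use, in endothelial cells (filled points) and all other cells (open points), 1 point for each of the sets A to F from left to right; the horizontal line is the mean of the 6 points. For each gene shown, all 6 endothelial points lie above all 6 points of the other cells, for Epas1 at 0.784 to 1.46 against 0.0335 to 0.0821. The 12 genes were picked for display from genes counted as higher, which had to be higher in each set. The share of all genes with such a gap was not computed.

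The barrier was described by 3 lists. Transporters were higher in 23 of 25 genes compared (median ratio 14.5), cell junctions in 13 of 15 (6.71) and Wnt and barrier induction genes in 9 of 14 (12.7), beside 23.5% of all genes. The thyroid hormone and organic anion carrier Slco1a4 had set means of 2.42, 1.51, 2.20, 1.78, 3.67 and 1.97 in endothelial cells of sets A to F and of 0.157, 0.0499, 0.0832, 0.119, 0.106 and 0.179 in other cells (ratio 19.5). In endothelial cells set E was the highest and set B the lowest. The set means of the groups did not overlap, a gap whose share over all genes was not computed. The efflux pump Abcb1a, or P-glycoprotein, had set means of 1.35, 1.02, 1.49, 1.05, 1.86 and 1.10 against 0.0282 to 0.0781 (26.1), and Abcg2 and Abcc4 had ratios of 14.2 and 19.9.

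The glucose transporter Slc2a1 had set means of 1.87, 1.33, 1.39, 0.838, 1.13 and 1.07 in endothelial cells and of 0.0414 to 0.143 in other cells (ratio 13.9), with set A the highest and set D the lowest. Carriers of thyroid hormone (Slco1c1, 18.2), taurine (Slc6a6, 11.6), lactate (Slc16a1, 14.5), large neutral amino acids (Slc7a5, 18.9, with its partner Slc3a2, 2.65), cationic amino acids (Slc7a1, 18.1), zinc (Slc39a10, 13.3), thiamine (Slc19a3, 26.7) and omega-3 lysolipids (Mfsd2a, 12.2) were higher in each set, as were the transferrin receptor Tfrc (9.85) and the iron exporter Slc40a1 (6.12). Slc7a1 varied among the sets, at 0.522 and 0.759 in sets E and F and 0.122 to 0.189 in the others. Slc38a5, a glutamine carrier, had a ratio of 20.2 and no value in set A. Slco2b1 did not differ by the rule (0.992), with a value in 14.8% of endothelial and 13.5% of other cells.

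Bsg, which encodes basigin, a partner of the lactate carriers, and which was chosen after its values were seen, had set means of 6.73, 5.67, 7.1, 5.54, 8.55 and 10.1 in endothelial cells and of 0.589 to 1.15 in other cells (ratio 9.49). It was present in 84.8% of endothelial cells and 48.6% of other cells.

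Among junction genes, Tjp1 (ZO-1, 7.23), Esam (16.1), Lsr (21.4), Afdn (14.8), Jam2 (4.85) and Ctnnb1 (β-catenin, 4.52) were higher in addition to Ocln and Cgnl1. Ocln had set means of 0.269, 0.286, 0.244, 0.135, 0.391 and 0.414 against 0.00493 to 0.0155, and set D was the lowest. F11r had a ratio of 0.768, and Ctnna1, at 4.15, was not higher in each set. Cldn1 and Tjp3 were listed at 0.

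Of the Wnt pathway, the receptors Fzd4 (15.3) and Fzd6 (16.5), the co-receptor Lrp6 (2.81), Tspan12 (11.6), the pathway's transcription factor Lef1 (24.0) and the targets Apcdd1 (21.1), Nkd1 (12.4) and Tnfrsf19 (18.4) were higher. Lef1 had set means of 0.654, 0.612, 0.488, 0.514, 0.783 and 0.897 in endothelial cells and of 0.0194 to 0.0448 in other cells. Reck (16.2) and Adgra2 (10.6), which pair to receive Wnt7 ligands, and the target Axin2 (13) had no value in at least 1 set and were counted in neither direction, as were Lrp5 (2.98) and Znrf3 (4.32).

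Of the caveolae and transcytosis genes, 6 of 11 compared were higher and 2 were lower (median ratio 5.0), beside 23.5 and 8.45% of all genes. The caveolar genes Cav1 (15.4), Cav2 (16), Cavin1 (16.9), Cavin2 (22.9), Cavin3 (5.0) and Ehd2 (11.1), whose product sits at the caveolar neck, were higher. Pacsin2 (0.367), whose product also shapes caveolae, and the sorting nexin Snx5 (0.299) were lower, and Cltc (0.555), Dnm2 (1.28) and Ehd4 (1.29) were counted in neither direction. Plvap, which forms the diaphragms of fenestrated and leaky vessels, had no value in any endothelial cell and a value in 0.18% of other cells. The depth behind these zeros is unknown.

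Basement membrane and matrix genes were higher in 13 of 15 genes compared (median ratio 12.5), beside 23.5% of all genes. These were, among others, the type IV collagens Col4a1 (12.9) and Col4a2 (14.6), the laminins Lama4 (14.7) and Lama5 (12.5), the proteoglycan Spock2 (19.3, present in 66.4% of the cells), Timp3 (21.4), Fn1 (4.50) and the integrin subunits Itga1 (14) and Itga6 (4.28). Sparc (1.19) and Itgb1 (1.81) were counted in neither direction, and Lamb1 was listed at 0.

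**Figure D3:**
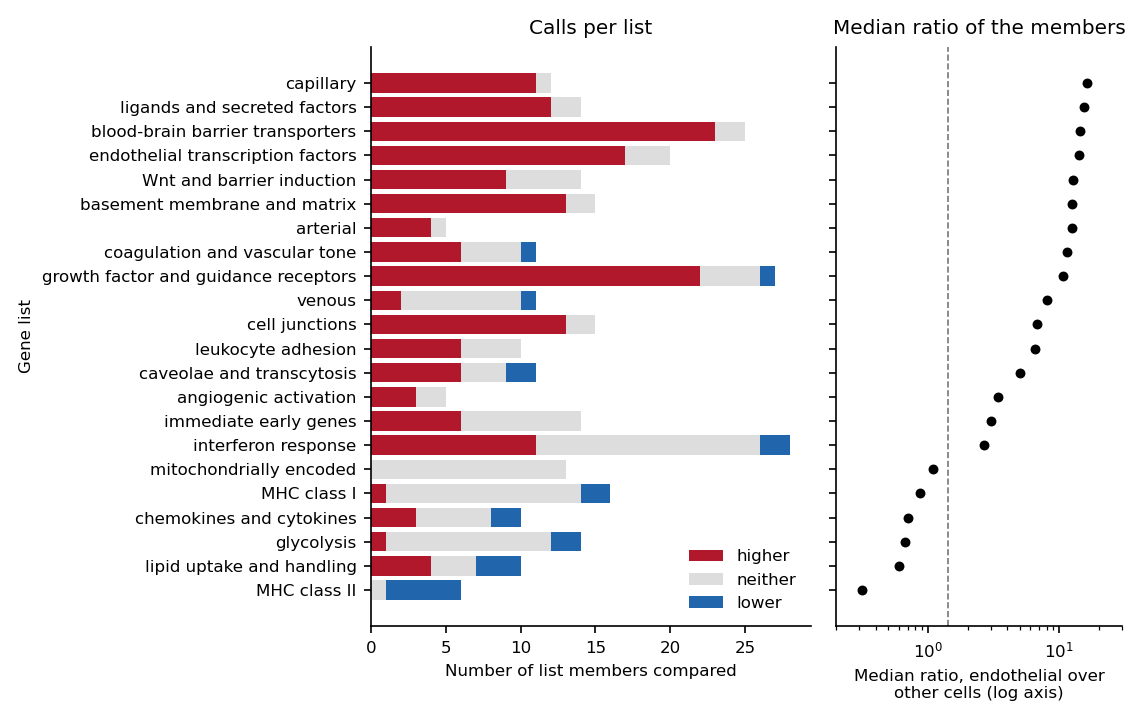
Left, the number of members of each of 22 gene lists that were higher, lower or neither in endothelial cells by the rule of ratio and sets; right, the median ratio of the members compared (log axis), with the median of all 4213 genes (1.43) as a dashed line. Capillary genes, ligands, transporters and transcription factors have the highest medians (14 to 16.3), and MHC class II the lowest (0.312).

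Position along the vessel was read from 15 arterial, 12 capillary and 13 venous genes. A cell was put in the segment with the most of its list detected, when at least 2 were. By this rule 178 cells were capillary-marked (64.3%), 33 venous-marked (11.9%) and 11 arterial-marked (3.97%), and 55 stayed without a segment (19.9%). The capillary list has many widely detected genes, so these shares describe the rule and are not vessel proportions. Capillary-marked cells made up 63.5, 53.1, 58.5, 56.8, 78.3 and 69.0% of the endothelial cells of sets A to F. Venous-marked cells made up 13.5, 22.4, 17.1, 5.41, 4.35 and 10.3%, or 7, 11, 7, 2, 3 and 3 cells.

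Genes outside the segment lists are given as a description. The leading genes of each segment were picked for a high ratio to the other segments. Their difference between segments therefore follows from the choice and is no finding. Edn1, Slco1a4, Abcb1a and Slc2a1 were not picked in this way and come from other gene lists. Arterial-marked cells carried Lrrc32, Tspan2, 2200002D01Rik, Cited2 and Mrpl58 in 3 of 11 cells each and the vasoconstrictor Edn1 in 5 of 11, against 6.18% of capillary-marked and 12.1% of venous-marked cells for Edn1. Capillary-marked cells carried Afap1l1 in 34.8%, Rapgef4 in 32.6%, Frmd4b in 27.0%, the cationic amino acid carrier Slc7a1 in 26.4% and Fam117b in 20.8%, each at no more than 9.09% in the other segments. Slco1a4 had a value in 86.0% of capillary-marked, 66.7% of venous-marked and 36.4% of arterial-marked cells, and Abcb1a in 79.2, 63.6 and 45.5%. Slc2a1 was spread more evenly, at 72.5, 60.6 and 54.5%. Capillary-marked cells also had more genes with a value, a median of 713.5 against 650 in venous-marked and 634 in arterial-marked cells, and the part of this in the shares was not tested.

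The leading genes of venous-marked cells were picked for their ratio in the same way. These cells carried Nrp2, a co-receptor of VEGF-C, in 30.3%, and the lysosomal Cd68 and Pld3, Fibp and Rnase4 in 21.2 to 24.2%. They had the adhesion molecule Vcam1 in 30.3% against 5.06% of capillary-marked cells, and the MHC class II gene H2-Ab1 in 30.3% against 10.1%. Vcam1 had a value in 2 of the 11 arterial-marked cells and H2-Ab1 in 0. The Vcam1 mean was 0.455 in venous-marked, 0.0674 in capillary-marked and 0.545 in arterial-marked cells. B2m was likewise near in venous-marked and arterial-marked cells, at 3.03 and 3.0, and at 1.24 in capillary-marked cells. The Apoe mean was 32.9 in venous-marked, 9.33 in capillary-marked and 6.55 in arterial-marked cells. Myeloid values moved with the segment. The median myeloid sum was 3 in venous-marked, 1 in capillary-marked and 0 in arterial-marked cells, and Tyrobp had a value in 54.5, 25.8 and 27.3% of them. Cd68 and Apoe are also genes of microglia and macrophages. The part of myeloid RNA in the venous values was not tested.

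**Figure D4:**
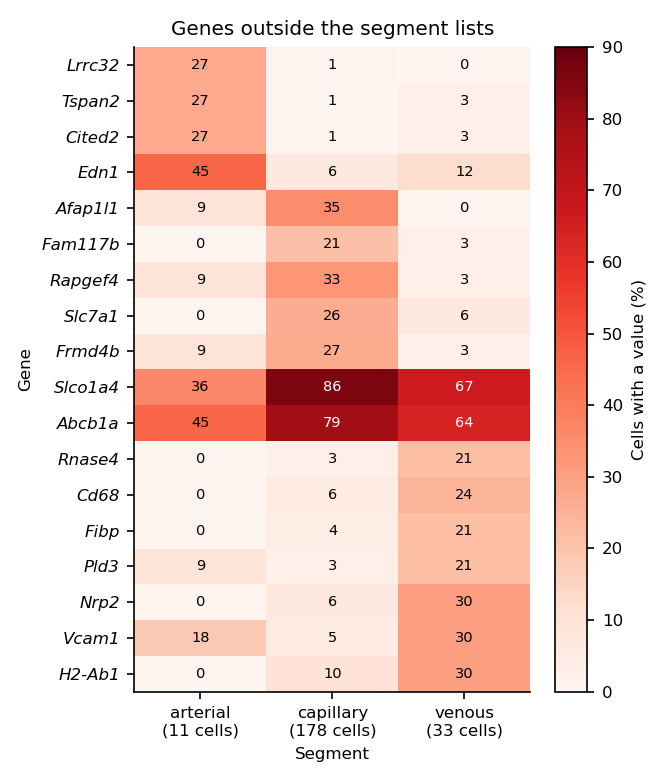
Share of cells with a value (%) for 18 genes outside the segment lists (rows) in arterial-marked, capillary-marked and venous-marked endothelial cells (columns, with the number of cells). Slco1a4 and Abcb1a are most often present in capillary-marked cells (86.0 and 79.2%), and Vcam1, Nrp2 and H2-Ab1 in venous-marked cells (30.3% each). Nrp2, like most genes shown, was picked for its difference between the segments.

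Genes of leukocyte adhesion were higher in 6 of 10 compared (median ratio 6.53), beside 23.5% of all genes. They were the sialomucins Podxl (22.2), Emcn (19.7) and Cd34 (3.01), Icam2 (15.3), Cd200 (11.5) and Vcam1 (5.06). Vcam1, the ligand of the integrin VLA-4, had set means of 0.0769, 0.245, 0.171, 0.027, 0.116 and 0.069 in endothelial cells, highest in set B and lowest in set D, and a value in 22 cells in all. Icam1 had a value in 4 endothelial cells (ratio 0.5, not lower in each set), and Alcam (1.84) and Cd47 (1.5) were counted in neither direction. Selp, Madcam1 and Glycam1 were listed at 0.

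Of the venous list, Vwf (8.33) and the ephrin receptor Ephb4 (20.8) were higher, or 2 of 11 genes compared, beside 23.5% of all genes. Another 8 of the 11 were counted in neither direction. Of these, genes known to be raised in inflamed venules had no value in some sets. Lrg1 had set means of 0, 0.49, 0.0976, 0, 0.058 and 0.172 in sets A to F. The chemokine-binding receptor Ackr1 had 0.0385, 0.204, 0.22, 0, 0.0145 and 0.241, Lcn2 had 0.0192, 0.408, 0.122, 0, 0.029 and 0.345, and the interleukin-1 receptor Il1r1 had 0.538, 0.327, 0.122, 0, 0.116 and 0.517. All 4 were at 0 in endothelial cells of set D, and their highest set was B, F or A. Endothelial cells of set D also held the most oligodendrocyte, mural, astrocyte and ependymal values, as given below. Lrg1 and Ackr1 each rest on 17 endothelial cells, Lcn2 on 18 and Il1r1 on 32. In all other cells the 4 genes were also lowest in set D and highest in set B, F or A. There Lrg1 was at 0.029, 0.0291, 0.00123, 0, 0 and 0.0231, and Ackr1 at 0.0269, 0.0208, 0.00616, 0, 0 and 0.0359. Lcn2 was at 0.0779, 0.0274, 0.00739, 0, 0.0256 and 0.0603, and Il1r1 at 0.0332, 0.0281, 0.0136, 0.00236, 0.00352 and 0.0244.

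Genes of coagulation and vascular tone were higher in 6 of 11 compared and lower in 1, beside 23.5 and 8.45% of all genes. The higher ones included the anticoagulant receptor Thbd at 20.2, the plasminogen activator Plat at 11.8 and the endothelin-converting enzyme Ece1 at 11.3. Ptgs1, which myeloid cells express, was lower (0.135).

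Interferon response genes were higher in 11 of 28 compared and lower in 2 (median ratio 2.68), beside 23.5 and 8.45% of all genes. Ly6a, or Sca-1, which is also carried by resting endothelium, had set means of 2.79, 2.69, 1.56, 1.70, 2.16 and 2.59 in endothelial cells against 0.0784 to 0.368 (ratio 9.56). Ifitm3, which blocks the entry of viruses, had 0.885, 2.39, 1.10, 0.946, 1.13 and 1.90 against 0.345, 0.859, 0.276, 0.127, 0.122 and 0.392 (3.93), with set B the highest on both sides. Ifit1 (6.33), Ifit3 (3.88), Isg15 (3.17), Ifitm2 (3.17), the regulator Irf7 (3.16) and the guanylate-binding proteins Gbp3 (4.34), Gbp4 (3.82), Gbp5 (3.39) and Gbp7 (3.64) were the others that were higher. Each of these but Ifitm2 had a value in at most 12.3% of endothelial cells. Irf8, a factor of myeloid development (0.154), and Ifi27l2a (0.322) were lower, and Bst2 (1.06) and Ly6e (1.15) were counted in neither direction.

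The summed interferon list had a mean of 8.75, 11.7, 7.68, 5.57, 6.41 and 8.97 per endothelial cell in sets A to F and of 3.90, 6.83, 3.03, 2.60, 2.19 and 3.77 per other cell. Without Ly6a, Ly6e and Ifitm3, the members with the highest endothelial means, it was 3.17, 4.8, 3.83, 1.84, 2.06 and 3.24 against 2.13, 4.16, 1.67, 1.01, 0.89 and 1.79. It was higher in endothelial cells in each set both ways, and within endothelial cells it was lowest in set D. In endothelial cells with a myeloid sum of 0 the whole list stood at 15.1, 16.3, 10.8, 7.86, 7.68 and 12, on 11, 12, 6, 14, 44 and 14 cells.

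Interferon signalling acts on many of these genes through an element that repeats GAAA. In RefSeq promoters (GRCm38.p6, 250 bases before the start site), GAAANNGAAA on either strand was found in 14 of 24 list genes with an entry (58.3%), in 3.04% of all 27025 promoters and in 2.70% of the 778 promoters of genes higher in endothelial cells. It was in 7 of the 9 list genes counted as higher that have an entry and in 7 of the 15 others. Matches that overlap were each counted. The following stretches are those of 4 genes of the list that were higher, with the matching letters in capitals, read along the strand of the gene.
Isg15 (chr4:156200860-156200911, minus strand): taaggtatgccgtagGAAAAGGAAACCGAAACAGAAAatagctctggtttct
Ifit1 (chr19:34640770-34640828, plus strand): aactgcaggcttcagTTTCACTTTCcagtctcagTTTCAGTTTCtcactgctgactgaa
Gbp3 (chr3:142559984-142560029, plus strand): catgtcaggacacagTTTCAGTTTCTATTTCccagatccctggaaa
Gbp7 (chr3:142530268-142530307, plus strand): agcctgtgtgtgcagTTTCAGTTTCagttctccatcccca
Isg15 has 3 overlapping matches, Ifit1 has 2 that lie apart, Gbp3 has 2 that overlap, and Gbp7 has 1. A match is a run of letters and no evidence of binding. The core GGAAGT of ETS sites, which is short, was in 19.2% of the promoters of genes higher in endothelial cells and in 19.99% of all promoters. Among the 3351 promoters of all genes compared, GGAAGT was in 23.4% and GAAANNGAAA in 2.89%.

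MHC class I genes stood apart from the barrier genes, with 1 of 16 higher and 2 lower, beside 23.5 and 8.45% of all genes. Their median ratio was 0.868. B2m, the light chain, was lower (0.476), at 1.90, 3.04, 2.44, 0.73, 0.565 and 2.28 in endothelial cells of sets A to F and 4.65, 5.40, 4.09, 2.19, 2.05 and 4.62 in other cells. The heavy chains H2-K1 (0.819) and H2-D1 (0.696) were counted in neither direction, and H2-Q4 was higher (3.74). The H2 genes are close copies of each other, so reads may have been shared among them. H2-K1 was at 1.06, 1.35, 1.37, 0.108, 0.116 and 1.10 in endothelial cells, with sets D and E low, and in other cells these sets were also the lowest, at 0.183 and 0.205 against 1.16 to 1.91.

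The same sets were low for the whole class I list. Its summed mean in endothelial cells was 6.77, 9.1, 8.0, 2.32, 2.25 and 7.45 in sets A to F, and 5.27, 9.25, 6.83, 2.71, 1.98 and 6.50 where the myeloid sum was 0. In other cells it was 11.2, 13.1, 9.62, 4.42, 4.22 and 10.6. Against only the other cells under the myeloid limit, B2m had a ratio of 1.06, H2-K1 of 1.52, H2-D1 of 1.49 and H2-T23 of 2.86, and 2 of 16 list members were higher and 0 lower, beside 22.7 and 5.64% of all genes in that comparison.

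MHC class II genes were lower in 5 of 6 compared and higher in 0 (median ratio 0.312), beside 8.45 and 23.5% of all genes. H2-Aa (0.319), H2-Ab1 (0.353), H2-Eb1 (0.305), H2-DMa (0.276) and H2-DMb1 (0.232) were lower, and Cd74, the invariant chain, had a ratio of 0.326. Cd74 set means were 1.29, 1.49, 1.41, 0.027, 0 and 0.207 in endothelial cells and 4.45, 3.93, 2.92, 0.0267, 0.052 and 2.22 in other cells. Myeloid values moved with these genes: where the myeloid sum was 0, Cd74 was at 0.182, 0.5, 0, 0.0714, 0 and 0.0714. Against the other cells under the myeloid limit, 0 of the class II genes were lower, beside 5.64% of all genes in that comparison. H2-Aa and Cd74 had ratios of 0.546 and 0.543 there.

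**Figure D5:**
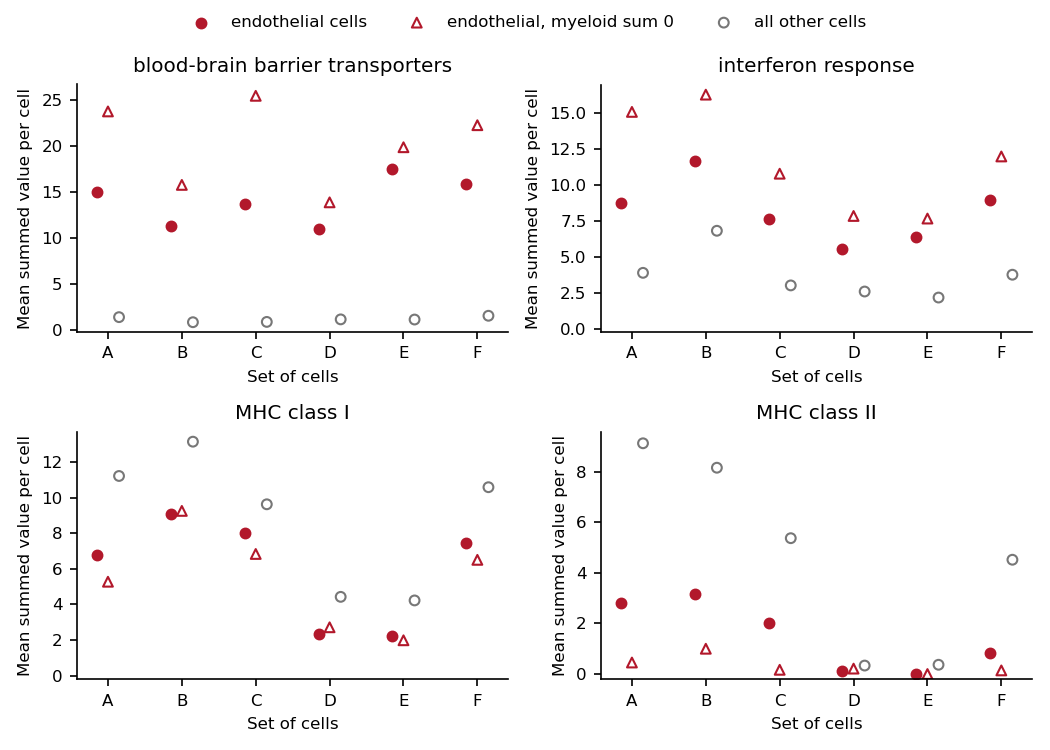
Mean summed value per cell of 4 gene lists (y axis) in sets A to F (x axis), in endothelial cells (filled circles), endothelial cells whose myeloid sum is 0 (triangles, 6 to 44 cells a set) and all other cells (open circles). Transporters and interferon genes are higher in endothelial cells in each set, and the MHC class I sum is lowest in sets D and E in each kind of cell, at 2.32 and 2.25 in endothelial cells.

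Chemokine and cytokine genes were higher in 3 of 10 compared and lower in 2 (median ratio 0.711), beside 23.5 and 8.45% of all genes. Cxcl12, which holds leukocytes at the vessel wall, had set means of 1.52, 1.53, 1.22, 1.78, 2.29 and 1.72 in endothelial cells and of 0.0271 to 0.137 in other cells (ratio 29.0). The stem cell factor Kitl (11.5) and Tnfsf10, or TRAIL (9.85), were the others that were higher. Ccl12 (0.33) and Cxcl9 (0.383) were lower, and Ccl5 (0.505), Cxcl16 (0.159) and Cxcl10 (0.916) were counted in neither direction. Against the other cells under the myeloid limit, 0 genes of this list were lower, beside 5.64% of all genes in that comparison. Il6 and Ccl7 were listed at 0. Genes of angiogenic sprouting were mostly too rare to compare, with 5 of 17 passing the minimum; Cd93 (17.9), Vim (3.41) and the chemokine scavenger Ackr3 (9.17) were higher, Angpt2 had a value in 3 endothelial cells and Apln in 1, and Pgf and Adm were listed at 0.

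Immediate early genes were higher in 6 of 14 compared (median ratio 3.02), beside 23.5% of all genes. They were Dusp1 (11.2), Ier3 (6.80), Ier2 (4.23), Klf6 (3.75), Jun (3.55) and Btg2 (2.49). Fos had a value in 2 endothelial cells and Egr1 in 3, and Fosb was listed at 0, in tissue perfused and digested with transcription inhibitors.

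Mitochondrially encoded genes were counted in neither direction in 13 of 13 (median ratio 1.09), whereas 23.5% of all genes were higher and 8.45% lower. The cytochrome b gene mt-Cytb had a ratio of 0.973 and mt-Nd1 one of 0.912. The mutated gene of the study, mt-Nd6, had set means of 0.173, 0.163, 0.146, 0.595, 0.435 and 0.276 in endothelial cells and of 0.0864, 0.0887, 0.0789, 0.602, 0.576 and 0.16 in other cells, with set D the highest of both (ratio 1.12). A point mutation is not seen in such values, and they check no label. mt-Nd3 was at 1.08, 0, 0.366, 0.027, 0.899 and 0 in endothelial cells and at 0.276, 0.00329, 0.253, 0.0102, 0.81 and 0.00513 in other cells, so it was near 0 in sets B, D and F in both.

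Glycolysis genes other than the glucose transporter were not higher. Gapdh (0.464) and Ldhb (0.215) were lower, and Aldoa (0.679), Hk2 (0.335) and Ldha (1.24) were counted in neither direction. Of the whole list, 1 of 14 was higher and 2 were lower (median ratio 0.673), beside 23.5 and 8.45% of all genes. In endothelial cells with a myeloid sum of 0 the summed list was at 6.36, 4.58, 5.33, 3.14, 2.75 and 3.64 in sets A to F. In other cells under the myeloid limit it was at 3.74, 5.79, 3.21, 2.32, 2.54 and 4.15. Of lipid handling genes, Pltp, Mfsd2a, the reelin and lipoprotein receptor Lrp8 (23.7) and the HDL receptor Scarb1 (7.29) were higher, and Apoe (0.396), Apod (0.491) and Fabp5 (0.373) were lower. Against the other cells under the myeloid limit Apoe had a ratio of 0.843. Cd36 was listed at 0.

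The span over sets, the highest over the lowest set mean, was ranked for genes with a value in each set and in at least 20% of endothelial cells, so that genes at 0 in a set, such as Cd74 and mt-Nd3, were left out. Of the 8 widest, 6 were genes counted as lower, beside 8.45% of all genes. Spp1 had the widest of these spans, at 3.25, 2.43, 1.93, 0.0541, 0.087 and 0.862 in sets A to F, and in other cells 9.50, 5.77, 4.90, 0.131, 0.109 and 3.99. Apoe was at 35.0, 11.7, 40.0, 1.32, 0.797 and 12.4 against 94.4, 28.9, 81.8, 1.5, 1.18 and 47.8. In both genes sets D and E were the lowest in endothelial and other cells alike. Lyz2, Ctsz, Tspo, Ctsb, Cyba and the haemoglobin gene Hbb-bs completed the 8 widest, with a highest set mean of 16.3 to 36.5 times the lowest.

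Markers of other cell types were counted in the endothelial cells. The 10 microglia and macrophage markers, 3 of them capped by the rule, each had a value in 9.03 to 48.7% of endothelial cells and 39.3 to 95.1% of other cells. Their summed mean was 8.02, 7.96, 8.15, 3.81, 2.17 and 4.59 in endothelial cells of sets A to F, against 28.5, 30.8, 26.5, 46.6, 42.2 and 35.5. Endothelial cells of sets A to C thus held more myeloid values than those of sets D to F, which stands beside each difference among sets given above. Those of set D had the highest summed means of oligodendrocyte (13.6), mural (1.49), astrocyte (1.03) and ependymal markers (0.919) among the sets. In set D 35.1% of the endothelial cells stayed without a segment. The part of this in the low values of set D was not tested. Oligodendrocyte markers were common: Mbp had a value in 81.6% of endothelial and 95.4% of other cells. At least 2 oligodendrocyte markers were held by 112 of the 277 cells, or 40.4%, against 70.8% of other cells. Red blood cell markers reached this number in 21 cells (7.58%), astrocyte markers in 16, mural markers in 11, and plasma cell and ependymal markers in 4 each. T or NK cell markers did so in 2 cells, proliferation markers in 1 and fibroblast markers in 0. The 1 choroid plexus marker in the table was listed at 0. Prox1, which defines lymphatic endothelium, had a value in 1.08%. Flt4, the other lymphatic marker that could be counted, had a value in 6.86% (ratio 35.4), and 0 cells held both. At least 2 of the 10 microglia and macrophage markers were held by 173 cells (62.5%), and at least 3 by 144. Leaving this type aside, 127 cells (45.8%) held at least 2 markers of oligodendrocytes, astrocytes, mural cells or T or NK cells. No caller of doublets was run. Without these 127 cells, 1030 genes were higher (23.1%) and 463 lower (10.4%), and 770 of the 991 genes were among the 1030. This was over the 5 sets that still held 20 cells, as set D no longer did.

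Pericytes and smooth muscle cells sit on the same vessels and were compared as the nearest neighbours. They were found as 54 other cells with at least 3 of 9 mural markers and a myeloid sum under 8, of which 92.6% had a value for Rgs5 and 92.6% for Vtn. Of the 991 genes higher in endothelial cells, 658 (66.4%) were at least 2-fold above the mural-marked cells, and 383 (38.6%) were also at least 2-fold higher in the mural-marked than in other cells. These shares were not computed over all 4213 genes, so whether they are unusual was not tested. Mural means were pooled over the 54 cells, whereas the endothelial and other means weighted the sets equally. Abcb1a had a value in 65.3% of endothelial and 3.70% of mural-marked cells, Egfl7 in 45.5 and 3.70%, and Pdgfb in 22.4 and 0%. Genes present in both were Igfbp7 (61.4 and 85.2%), Sparcl1 (52.7 and 74.1%), Epas1 (63.9 and 51.9%), Ebf1 (36.1 and 38.9%), Cavin1 (31.0 and 31.5%), Col4a1 (26.7 and 24.1%) and Itga1 (27.1 and 37.0%). Rgs5 itself had a value in 6.14% of endothelial cells, at set means of 0.378 and 0.493 in sets D and E and 0 to 0.0816 in the others.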

How the data were processed

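Dissociated spinal cord cells were measured by 10x 3′ scRNA-seq in 6 libraries. Per the labels, reads were processed with Cell Ranger 7.1.0 on GRCm38 and Seurat 4.3.0.1. The authors deposited 1 table of 18792 genes by 13614 cells. These deposited values were used as a score per gene and cell; how they were derived from UMI counts is not given in the sources used here. All cells were kept. Because cell names are tied to no library, no count model, group comparison or p-value was made. The 35 gene lists, the members and the rules were chosen with earlier results of these data known. A gene needed a value in at least 5% of either group, and means were weighted equally over sets with at least 20 endothelial cells. Myeloid-marked cells are other cells with a myeloid sum of at least 8. Genes were named when used by the rule, among the 25 highest or 10 lowest ratios, in a list, among the 5 leading genes of a segment (value in at least 20% of its cells) or among the 8 with the widest span over sets; Bsg, Sptbn1, Ebf1 and the 10 genes with the highest endothelial means were chosen after their values were seen. Intervals are exact binomial (Clopper-Pearson, 95%). The comparison was tested on simulated data. Python 3.11.15, numpy 2.4.6, scipy 1.17.1 and pandas 2.3.3 were used. Alternatives covered the scale, weights, filters, marker number, myeloid limit, second cell types, comparison cells and each set in turn. A few list members are not reported here.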

Additional observations from a re-analysis of the deposited data

How the results depend on the processing

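Of 198 named genes counted as higher or lower, 197 kept the direction of their ratio under 14 alternatives, and B2m reversed, to a ratio of 1.06 against other cells with a myeloid sum under 8. For many alternatives this was fixed in advance. A counted gene went the same way in each set, so leaving out a set could not reverse it. The filters on the share of cells leave a ratio unchanged. Without reversing, 758 of 3666 ratios moved by more than 1 SD over the sets, and 47 list counts moved by over 1.5 times. With that comparison 230 genes were lower in place of 356, of which 111 were shared, and 9 listed genes in place of 21. With no filter on low values 1917 genes were lower, since rare genes were then compared; with a minimum of 10% of cells 637 were higher and 221 lower. Requiring a myeloid sum of 0 left 101 cells (0.742%), 44 of them in set E, the one set with at least 20, so that the condition on sets fell away and 2036 genes were higher and 686 lower. Without a myeloid limit 1257 cells (9.23%) were taken. With 3 markers the share was 1.54% and the venous-marked cells numbered 21 in place of 33. Leaving out each set in turn gave 1022 to 1128 higher and 360 to 412 lower genes, and 152 to 164 higher and 21 to 24 lower list members. Scaling each cell to 10000 gave 883 higher and 373 lower genes, 871 of the 883 shared with the 991. No paired analysis was possible because no library or replicate is named for any cell. Depth is unknown, so no limit could be set on genes listed at 0.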

Other observations

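Of the 10 genes with the highest means in endothelial cells, Bsg, Gm42418 and Malat1 were higher and Apoe was lower. Malat1, a nuclear long non-coding RNA, had set means of 17.3, 10.5, 14.5, 7.62, 18.7 and 10.1 in sets A to F against 2.39 to 7.28 in other cells (ratio 2.49). Gm42418, which overlaps a ribosomal RNA repeat, had set means of 16 to 39.7 against 4.86 to 10.9 (ratio 3.29), and it was highest in sets D and E. Sptbn1, which is not among them and encodes a spectrin of the membrane skeleton, was present in 79.8% of endothelial and 14.1% of other cells (ratio 16.4). The other 6 of the 10 were counted in neither direction, the mitochondrial ribosomal RNA genes mt-Rnr2 and mt-Rnr1 at ratios of 1.08 and 1.05, mt-Cytb at 0.973, Fth1 at 0.587, Mbp at 0.575 and Tmsb4x at 0.556.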
